A study of Mus musculus with 9 samples.

Results

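The BAF complex was followed through the 10 subunit genes Smarca2, Smarca4, Smarcc1, Smarcc2, Smarcd1, Smarcd2, Smarcd3, Arid1a, Arid1b and Actl6a, of 18193 genes with a value. They were chosen by name, with earlier results of these data known. Every probe set that the array annotation paired with a single one of these symbols was taken. This gave 21 probe sets of the 45037 tested. RNA came from E14 cells, a line of mouse embryonic stem cells (ESCs), and was hybridized to Affymetrix whole-genome mouse arrays. The ESC group held 4 arrays, numbered 2, 6, 8 and 10 in their titles, and the embryoid body (EB) group 5 arrays, numbered 1, 3, 5, 7 and 9. Embryoid bodies are aggregates in which ESCs differentiate into a mixture of cell types. Both groups carried the label of no treatment, and the labels gave neither a genotype other than the line nor a day of differentiation. The study's methods call the ESC arrays biological replicates, but no source used here says whether the EB arrays came from separate cultures, so that p-values measure only the spread between these arrays, which may be technical.

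BAF, the mammalian SWI/SNF complex, uses ATP to slide or eject nucleosomes and thereby opens DNA to other factors. Each complex holds a single ATPase, either Smarca4 (Brg1) or Smarca2 (Brm), on a scaffold of Smarcc1 and Smarcc2, with a Smarcd subunit, a DNA-binding Arid1 subunit and an actin-like subunit such as Actl6a. Several positions can be filled by alternative paralogues, and cell types are known to differ in which they use. ESCs are known for a form built on Smarca4, Smarcc1, Smarcd1 and Arid1a, while Smarcd3 is known for its role in heart and skeletal muscle.

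Of the 10 genes, 5 were higher and 3 lower in embryoid bodies, and the genes that rose most were the alternative paralogues. Smarcd3 rose by 3.98 on the log2 scale, and Smarcc2, Arid1b and Smarca2 each rose by 1.11 to 1.19, while no gene of the 10 fell by as much as 2-fold. Levels are log2 of the authors' GCRMA intensities, differences are EB minus ESC with the standard error (SE) of a limma fit over all probe sets, and a difference is called at a Benjamini-Hochberg adjusted p under 0.05. Each gene was represented by its probe set with the highest mean over the 9 arrays. The 10 genes and the later lists were chosen with earlier results of these data known. Shares over all genes are therefore given only for scale. Of the 10 subunit genes 8 were called. By the same rule 30.4% of all genes were called, 15.7% higher and 14.7% lower in embryoid bodies. That share is lowered by 5788 genes under log2 4 on every array, near the floor of the scale, where none of the 10 lay. Among the 12010 genes that reached log2 4 on at least 4 arrays, as all 10 did, 44.4% were called, 23.5% higher and 20.9% lower. A change of at least 2-fold was called for 4 of the 10, against 9.51% of all genes and 14.2% of those 12010. The ESC and EB arrays did not overlap for 7 of the 10, against 35.0% and 47.4%. The median absolute difference was 0.34 over the 10 genes, 0.12 over all genes and 0.25 over the 12010. The count of genes called lower rested on single arrays, being 1 in place of 3 without ESC array 2, 6 or 8, while 5 were called higher whichever array was left out.

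The arrays matched their labels. Of 6 ESC markers, 5 were lower in embryoid bodies, among them Pou5f1, and the summed marker level went from log2 13.70 to 13.89 on ESC arrays to 10.97 to 11.53 on EB arrays, although Esrrb was not called. Markers of cardiac muscle (4 of 6 called), fibroblasts (5 of 5) and primitive blood (2 of 3) were higher in embryoid bodies. Endothelial markers were mixed, with 2 of 4 called higher, Kdr and Cdh5, the latter near the floor. Tek was not called, and Pecam1 lay under log2 4 on all arrays. No neuronal marker of 6 and no skeletal muscle marker of 4 was called higher, and 2 neuronal markers, Neurod1 and Stmn2, were called lower. In such mixtures, fewer cells of a type and less RNA per cell cannot be told apart. Arrays numbered up to 6 and arrays numbered 7 and above correlated better among themselves (r from 0.998 to 0.999 across probe sets within a group) than with each other (0.995 to 0.998), and the sources used here do not say what the numbers mark. Both groups held arrays of both ranges, so that each result was also computed within them. The log2 difference between 3′ and 5′ actin control probe sets was 0.63 to 0.71 on ESC arrays and 0.55 to 0.72 on EB arrays. Without EB array 9 the number of probe sets called went from 9507 to 17628, most of them lower in embryoid bodies.

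**Figure D1:**
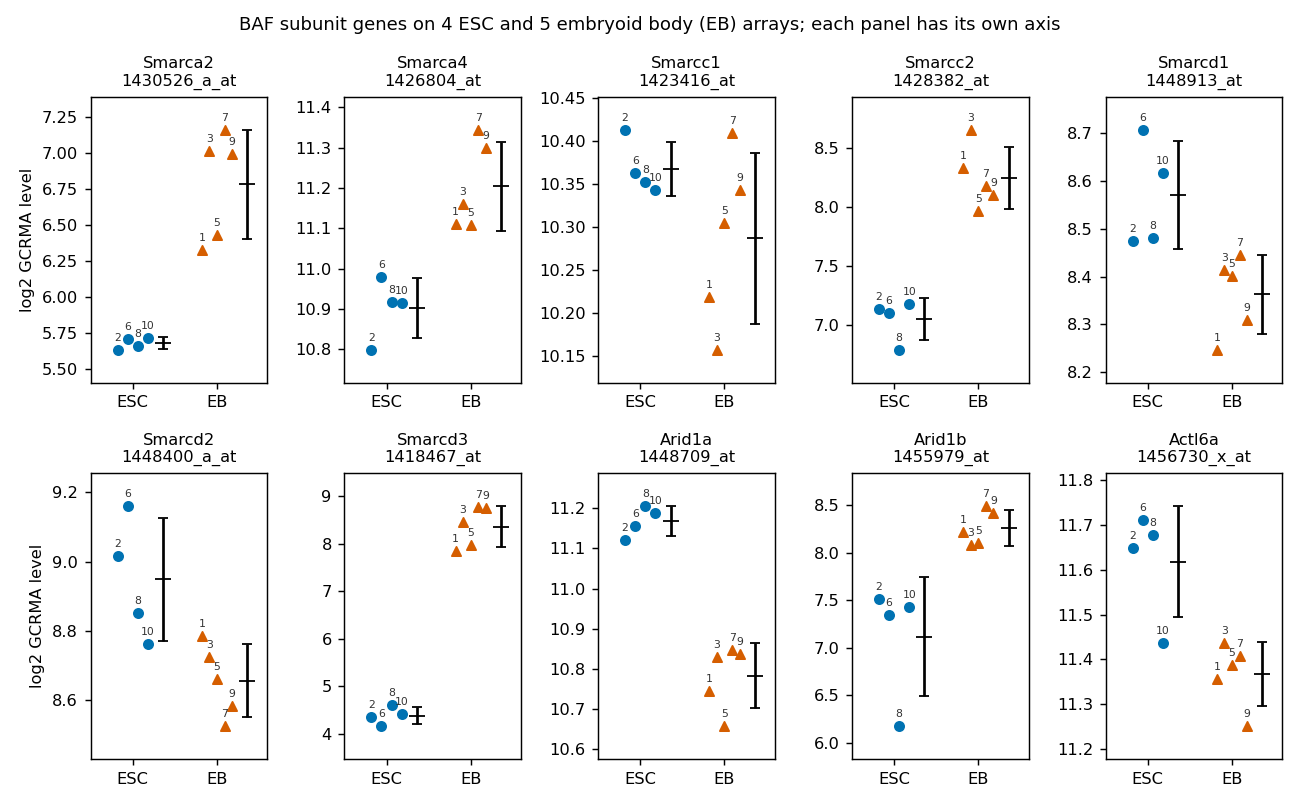
Log2 GCRMA level of the 10 BAF subunit genes on the 4 ESC arrays (circles) and the 5 EB arrays (triangles), 1 panel for each gene with its own vertical axis, points labelled with the array number and bars giving the mean and SD. Smarca2, Smarcc2, Smarcd3 and Arid1b lie 1.11 to 3.98 higher on EB arrays with no overlap, while Smarcc1, Smarcd2 and Actl6a overlap between the groups.

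Shown are windows before the annotated starts of the 4 genes that rose by at least 2-fold, the paralogues on which the comparison turns. Each window is the 250 bases before the gene's annotated start in RefSeq (GRCm38.p6), 5′ to 3′ on the gene's strand. Whether transcription begins further upstream was not tested. In the Arid1b window, the letters atg open a reading frame without a stop up to the window's end. That window may therefore hold coding rather than promoter sequence. Capitals mark the GC box, GGGCGG on either strand, the letters bound by Sp-family factors. The windows are Smarca2 at chr19:26604910-26605159 on the plus strand, Smarcc2 at chr10:128458986-128459235 on the plus strand, Smarcd3 at chr5:24602003-24602252 on the minus strand and Arid1b at chr17:4994824-4995073 on the plus strand.
Smarca2: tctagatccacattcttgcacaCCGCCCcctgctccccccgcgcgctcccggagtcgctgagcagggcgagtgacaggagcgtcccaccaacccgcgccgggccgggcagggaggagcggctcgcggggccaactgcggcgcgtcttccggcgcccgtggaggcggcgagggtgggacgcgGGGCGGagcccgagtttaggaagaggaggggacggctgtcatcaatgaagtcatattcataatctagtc
Smarcc2: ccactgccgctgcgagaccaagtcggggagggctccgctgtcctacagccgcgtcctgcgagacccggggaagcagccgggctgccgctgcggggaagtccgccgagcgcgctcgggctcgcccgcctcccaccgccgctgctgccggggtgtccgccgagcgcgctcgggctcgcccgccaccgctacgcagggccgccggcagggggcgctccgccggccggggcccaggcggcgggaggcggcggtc
Smarcd3: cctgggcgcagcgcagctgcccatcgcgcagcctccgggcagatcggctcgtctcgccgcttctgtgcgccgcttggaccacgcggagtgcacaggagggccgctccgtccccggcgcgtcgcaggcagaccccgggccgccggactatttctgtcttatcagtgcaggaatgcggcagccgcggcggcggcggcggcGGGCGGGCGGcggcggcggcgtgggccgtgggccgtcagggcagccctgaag
Arid1b: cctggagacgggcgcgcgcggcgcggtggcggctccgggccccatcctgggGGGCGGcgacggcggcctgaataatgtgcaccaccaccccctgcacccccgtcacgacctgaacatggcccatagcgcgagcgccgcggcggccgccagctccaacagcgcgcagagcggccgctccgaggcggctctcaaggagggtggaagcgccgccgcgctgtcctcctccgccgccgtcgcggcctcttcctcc

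These windows are rich in CpG dinucleotides, the bases on which mammalian DNA is methylated. The Smarcc2 window held 40 CpG, more than 98.7% of the 32851 windows of all RefSeq genes of any type, whose median was 6. The Smarcd3 window held 38, the Arid1b window 37 and the Smarca2 window 28. The property was not particular to the genes that rose, since the first Arid1a window held 33 and the Smarcd1 window 29, while the Smarcd2 window held 4. All 10 genes matched the table, Arid1a with 2 windows. The GC box was found in 10 of these 11 windows and in 32.7% of all windows, with 2 overlapping copies in the Smarcd3 window and none in the Smarcc2 window. The E-box CANNTG was found in 3 of 11 windows against 66.2% of all. The CCAAT box (CCAAT) was found in 0 of 11 against 33.8%, and TATAAA in 1 of 11, that of Smarcd2, against 12.4%. All motifs were searched on both strands, the GC box is itself made of G and C bases, and a match says only that the letters are present.

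The ATPases both rose, Smarca2 more than Smarca4. Smarca2 (probe set 1430526_a_at) lay at log2 5.63, 5.71, 5.66 and 5.72 on ESC arrays 2, 6, 8 and 10, and at 6.33, 7.01, 6.43, 7.16 and 6.99 on EB arrays 1, 3, 5, 7 and 9. The ESC arrays were nearly equal, and every EB array lay above them, arrays 1 and 5 least. The difference was 1.11 ± 0.18 (SE), or 2.15-fold (95% interval 1.63 to 2.83), with a limma adjusted p of 0.00138. The second Smarca2 probe set, 1452333_at, stayed between 2.24 and 2.32 on all 9 arrays, at the floor of the scale, and was not called.

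Smarca4, the ATPase of the ESC form, was bright in both groups. Its probe set 1426804_at lay at 10.80, 10.98, 10.92 and 10.91 on the ESC arrays and at 11.11, 11.16, 11.11, 11.34 and 11.30 on the EB arrays. The groups did not overlap, and EB arrays 7 and 9 were highest. The difference was 0.30 ± 0.06, or 1.23-fold (1.12 to 1.36), with a limma adjusted p of 0.00715. The other probe set, 1426805_at, differed by 0.15 ± 0.10 in the same direction and was not called (limma adjusted p = 0.243). Within arrays numbered up to 6 the Smarca4 difference was 0.24 and no longer passed (limma adjusted p = 0.0711, where the alternatives ranged from 0.000899 to that value).

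The scaffold genes parted. Smarcc2 (1428382_at) lay at 7.14, 7.11, 6.80 and 7.18 on the ESC arrays and at 8.33, 8.66, 7.97, 8.18 and 8.10 on the EB arrays, without overlap. It rose by 1.19 ± 0.14, or 2.29-fold (1.83 to 2.86), with a limma adjusted p of 0.000236. The rise was 1.20 within arrays numbered up to 6 and 1.15 within those numbered 7 and above.

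Smarcc1 was read by 4 probe sets that did not move alike. The brightest, 1423416_at, lay at 10.41, 10.36, 10.35 and 10.34 on the ESC arrays and at 10.22, 10.16, 10.31, 10.41 and 10.34 on the EB arrays, which overlapped. It differed by -0.08 ± 0.05 and was not called (limma adjusted p = 0.237). The second bright one, 1455246_at, differed by -0.07 ± 0.06 and was not called either. In contrast, 1423417_at went from 6.98, 6.89, 6.94 and 6.94 to 6.11, 6.09, 6.22, 6.35 and 6.32. This probe set fell by 0.72 on the log2 scale (SE 0.07, limma adjusted p = 5.1e-05), with no overlap. The remaining one, 1459824_at, reached log2 4 on 1 array and was not called. A call for Smarcc1 therefore depended on the probe set, and the mean over its probe sets differed by -0.21 (limma adjusted p = 0.00723, lowest of its alternatives, which reached 0.785).

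The Smarcd position gave the widest contrast. Smarcd3 (1418467_at) lay at 4.36, 4.16, 4.59 and 4.41 on the ESC arrays, little above the array medians of 4.01 to 4.09. On the EB arrays it lay at 7.84, 8.45, 7.98, 8.78 and 8.75. All EB arrays lay far above all ESC arrays, and arrays 7 and 9 were highest. The difference was 3.98 ± 0.21, or 15.7-fold (11.3 to 21.9), with a limma adjusted p of 1.88e-06. Of the 18193 genes, 63 had a larger difference in that direction, against 843 for Smarcc2, 888 for Arid1b and 930 for Smarca2. The fold rests on ESC levels near the floor of the scale, which makes it less certain than its interval shows. The difference was 3.82 within arrays numbered up to 6 and 4.26 within those numbered 7 and above.

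Cardiac muscle markers were higher on EB than on ESC arrays, as Smarcd3 was, and so were fibroblast and primitive blood markers. Within the EB group, Smarcd3 was highest on arrays 7 and 9. There the cardiac markers Tnnt2 and Actn2 were highest too, while Myh6 and Myl2 were lowest. The summed level of the cardiac markers was log2 7.53 to 7.87 on ESC arrays and 12.53 to 12.78 on EB arrays, with 4 of 6 called higher. Of the defining genes, Tnnt2 rose by 7.82 ± 0.25 (limma adjusted p = 1.42e-07), while Nkx2-5 lay at 5.41 to 6.07 on ESC arrays and at 6.06 to 6.29 on EB arrays and was not called. Skeletal muscle markers lay at a summed level of 8.17 to 9.63 on ESC arrays and 7.95 to 8.39 on EB arrays, with Myod1 and Myog under log2 3 on all arrays. The part of cardiac or other cells in the Smarcd3 result was not tested.

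The other Smarcd genes did not rise. Smarcd1 (1448913_at) lay at 8.47, 8.71, 8.48 and 8.62 on the ESC arrays and at 8.25, 8.41, 8.40, 8.45 and 8.31 on the EB arrays. All EB arrays lay below all ESC arrays, but the difference of -0.21 ± 0.07 did not pass (limma adjusted p = 0.0604). It passed under 4 alternatives, among them quantile normalization at -0.26 (limma adjusted p = 0.0164, in a range up to 0.442). A second Smarcd1 probe set, 1420240_at, lay between 2.11 and 2.21 on all arrays.

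Smarcd2 (1448400_a_at) lay at 9.02, 9.16, 8.85 and 8.76 on the ESC arrays and at 8.79, 8.73, 8.66, 8.53 and 8.58 on the EB arrays. ESC array 10 lay below EB array 1, and in both groups the arrays numbered 7 and above were lower than the rest. It was called at the edge of the threshold, at -0.29 ± 0.09 (limma adjusted p = 0.0489). The call was lost when any of ESC arrays 2, 6 and 8 or EB arrays 3, 5, 7 and 9 was left out, with differences between -0.35 and -0.22 over all 9 such fits. The probe set 1448401_at gave a wider separation, from 7.72, 7.89, 7.81 and 7.81 to 7.43, 7.40, 7.15, 7.19 and 7.36. It fell by 0.50 on the log2 scale (SE 0.07, limma adjusted p = 0.000901). The third, 1426192_at, differed by -0.01 ± 0.05 and was not called.

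The Arid1 subunits, which bring DNA binding to the complex, moved in opposite directions. Arid1a fell on both of its probe sets without overlap. On 1448709_at it lay at 11.12, 11.16, 11.21 and 11.19 on the ESC arrays and at 10.75, 10.83, 10.66, 10.85 and 10.84 on the EB arrays. The difference was -0.38 ± 0.05 (limma adjusted p = 0.000278), which is 1.31-fold lower (ESC over EB). On 1417440_at it was -0.43 ± 0.09 (limma adjusted p = 0.00817).

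Arid1b (1455979_at) lay at 7.51, 7.35, 6.18 and 7.43 on the ESC arrays and at 8.22, 8.08, 8.10, 8.49 and 8.42 on the EB arrays. ESC array 8 stood more than 1 log2 unit below the other ESC arrays, and all EB arrays lay above all of them. The gene rose by 1.15 ± 0.26, or 2.21-fold (1.47 to 3.34), with a limma adjusted p of 0.0118. Without ESC array 8 the rise was 0.83 with a limma adjusted p of 0.000891, the lowest of its alternatives. Within arrays numbered up to 6 it was 0.70, and within those numbered 7 and above, which include array 8, it was 1.65 and did not pass (limma adjusted p = 0.0858, the highest).

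Actl6a, the actin-like subunit of dividing cells, was slightly lower in embryoid bodies. Its brightest probe set, 1456730_x_at, lay at 11.65, 11.71, 11.68 and 11.44 on the ESC arrays and at 11.36, 11.44, 11.39, 11.41 and 11.25 on the EB arrays. ESC array 10 and EB array 3 coincided, and the other ESC arrays lay above every EB array. The difference was -0.25 ± 0.06 (limma adjusted p = 0.0189). The call was lost without ESC array 2, 6 or 8, with differences between -0.31 and -0.22 over all fits that left out an array. A clearer separation came from 1416569_at, which went from 10.71, 10.91, 10.83 and 10.75 to 10.27, 10.40, 10.30, 10.48 and 10.41. It fell by 0.43 on the log2 scale (SE 0.06, limma adjusted p = 0.000481). The third, 1429883_at, differed by -0.04 ± 0.09 and was not called.

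Over all 21 probe sets, 12 were called, 5 higher and 7 lower in embryoid bodies, where 21.1% of all probe sets were called, 10.5% higher and 10.6% lower. Of the 22820 probe sets that reached log2 4 on at least 4 arrays, as 18 of the 21 did, 39.2% were called. Of the 9 that were not called, 6 reached log2 4 on at least 4 arrays. No gene had a called probe set in each direction. The 3 genes Smarcc2, Smarcd3 and Arid1b were read by a single probe set each, so that no other probe set taken here checks their values. For Smarca2 the rise likewise rested on 1430526_a_at alone. The study itself used only plain _at probe sets, because other types may also bind RNA of other genes. Of such other types are 1430526_a_at and the brightest probe sets of Smarcd2 (1448400_a_at) and Actl6a (1456730_x_at).

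**Figure D2:**
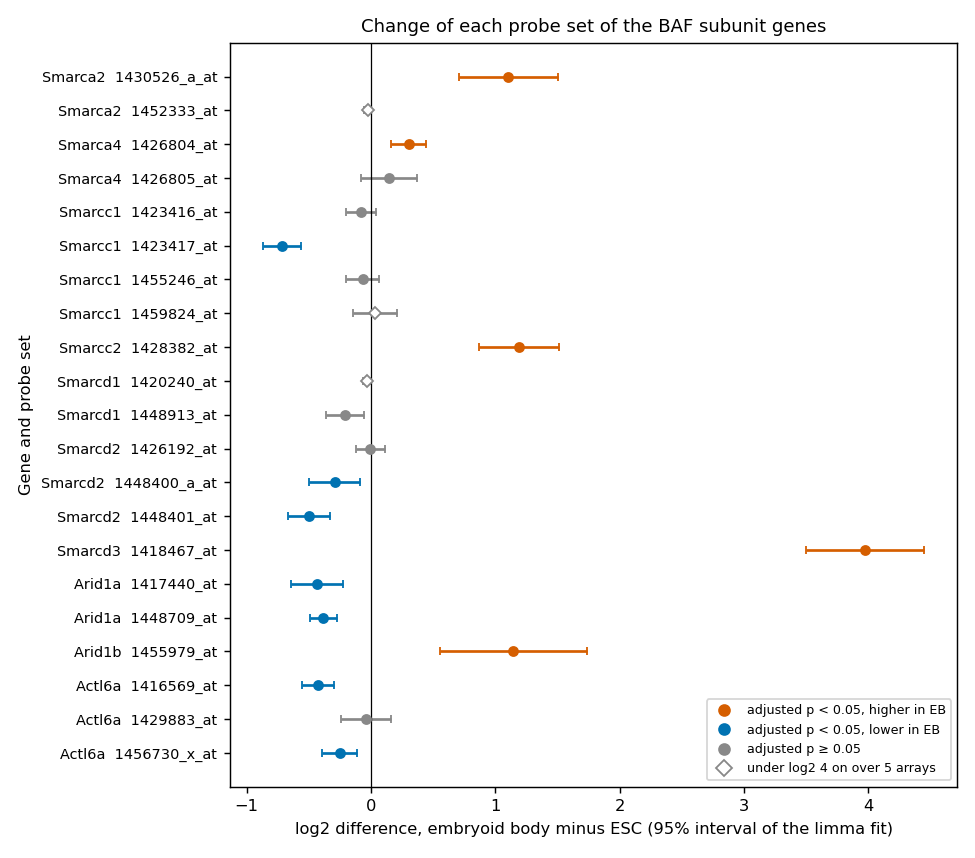
Log2 difference, EB minus ESC, of each of the 21 probe sets of the BAF subunit genes, with 95% intervals of the limma fit; colours mark the direction of called probe sets and open diamonds those under log2 4 on more than 5 arrays. The 5 called higher belong to Smarca2, Smarca4, Smarcc2, Smarcd3 and Arid1b, and the 7 called lower to Smarcc1, Smarcd2, Arid1a and Actl6a.

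Whether a paralogue changed more than its partner was tested within arrays, as the log2 difference between the probe sets of both genes on each array, in an exact two-sided permutation test of 4 against 5 arrays. Of 6 pairs compared, 5 differed without overlap between the groups, each at an exact p = 0.0159, the smallest that 126 arrangements allow, and 0.0191 after Benjamini-Hochberg adjustment over the 6 pairs. Levels of different probe sets are not comparable, so that each value below is relative to the pair's mean on the ESC arrays.

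For the ATPases, Smarca2 rose more than Smarca4 by 0.80 ± 0.13 on the log2 scale. ESC arrays lay between -0.05 and 0.06, and EB arrays at 0.44, 1.08, 0.54, 1.04 and 0.92. For the scaffold, Smarcc2 rose relative to Smarcc1 by 1.27 ± 0.18, with ESC arrays between -0.25 and 0.15 and EB arrays at 1.42, 1.81, 0.98, 1.08 and 1.07. In both pairs the smallest EB value was above the largest ESC value. The ATPase result rested on the Smarca2 probe set 1430526_a_at: the mean over each gene's probe sets gave 0.32 (exact p = 0.0159), and plain probe sets, which read Smarca2 by the one at the floor, gave -0.33 (exact p = 0.0159).

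Smarcd3 rose relative to Smarcd1 by 4.18 ± 0.23, a change of 18.2-fold in their ratio. ESC arrays lay between -0.35 and 0.30, and EB arrays at 3.78, 4.22, 3.77, 4.52 and 4.63. Relative to Smarcd2 the rise of Smarcd3 was 4.27 ± 0.29, or 19.3-fold. Both folds rest on Smarcd3 levels near the floor on the ESC arrays and are as uncertain as that of Smarcd3 itself. Smarcd2 and Smarcd1 themselves differed by -0.08 ± 0.11 (exact p = 0.444), with ESC arrays from -0.23 to 0.16 and EB arrays from -0.30 to 0.16. With plain probe sets, which read Smarcd2 by 1448401_at, the difference was -0.29 (exact p = 0.0317), so that whether Smarcd2 fell more than Smarcd1 depended on the probe set.

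Arid1b rose relative to Arid1a by 1.53 ± 0.34, or 2.89-fold. ESC arrays 2, 6 and 10 lay at 0.44, 0.24 and 0.30, and array 8 at -0.98. EB arrays lay at 1.52, 1.30, 1.49, 1.70 and 1.64, above all of them. Without ESC array 8 the difference was 1.20 (exact p = 0.0357, the smallest that the remaining arrays allow).

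**Figure D3:**
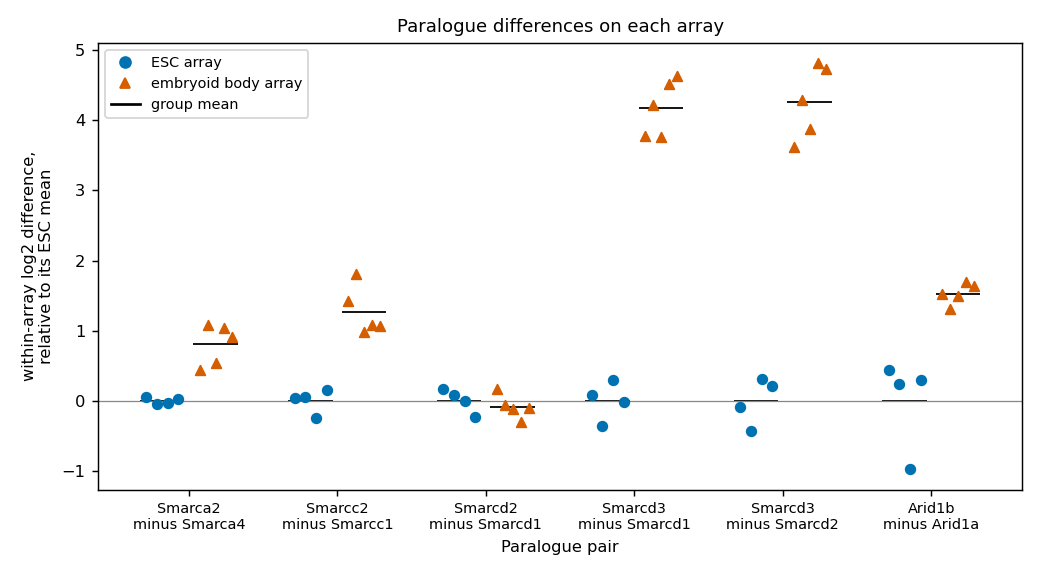
Log2 difference between the paralogues of 6 pairs on each array, relative to the pair's mean on the ESC arrays (circles, ESC; triangles, EB; black lines, group means). For 5 pairs the EB arrays lie above all ESC arrays, from a mean of 0.80 for Smarca2 minus Smarca4 to 4.27 for Smarcd3 minus Smarcd2, and for Smarcd2 minus Smarcd1 they overlap.

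The 2 ranges of array numbers also differed within a group. EB arrays 7 and 9 lay outside the range of EB arrays 1, 3 and 5 for 6 of the 10 genes, higher for Smarca4, Smarcc1, Smarcd3, Arid1a and Arid1b and lower for Smarcd2, against 27.0% of all genes. ESC arrays 8 and 10 lay outside the range of arrays 2 and 6 for 4 of the 10, higher for Smarcd3 and Arid1a and lower for Smarcc1 and Smarcd2, against 35.4% of all genes. Smarcd3, Arid1a and Smarcd2 thus moved with the array number in the same direction in both groups. For Smarcd3 and Arid1a the shift was well under their difference between the groups. For Smarcd2 it was also under that difference, but close to it on the ESC arrays. What the numbers stand for was not tested.

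The same comparison was made for 21 further subunits of BAF and of its relatives PBAF and GBAF. Of these, 8 were higher and 2 lower in embryoid bodies, against 23.5% and 20.9% of genes that reached log2 4 on at least 4 arrays, as 20 of the 21 did. In all, 10 of 21 were called, near the 44.4% of those genes, and their median absolute difference of 0.25 was the same. The count called higher was 5 without ESC array 10, EB array 3 or EB array 7, and within arrays numbered up to 6 it was 3, with 3 lower. Bcl7a, an accessory subunit, rose by 1.31 ± 0.22 (limma adjusted p = 0.00203) on 1428207_at. It went from at most 7.42 on the ESC arrays to a median of 8.12 and a highest value of 8.75 on the EB arrays. Its other probe sets lay under log2 4 on all arrays and were not called, so that the rise rested on 1428207_at alone. Smarce1, the HMG-box subunit of BAF and PBAF, rose by 0.72 ± 0.08 (limma adjusted p = 0.000182) on its brightest probe set and by 1.58 ± 0.13 on a second. Dpf2, a histone-reading subunit of BAF, rose by 0.40 ± 0.07 (limma adjusted p = 0.00269). None of these had overlapping groups. Groups did not overlap for 10 of the 21 in all, against 47.4% of genes that reached log2 4 on at least 4 arrays.

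The alternative GBAF subunits Bicra and Bicral moved in opposite directions. Bicra lay at 7.02, 7.14, 7.21 and 7.32 on the ESC arrays and at 7.75, 8.19, 7.87, 7.99 and 7.88 on the EB arrays, a rise of 0.77 ± 0.10 (limma adjusted p = 0.000336). Bicral fell by 1.23 on the log2 scale on its brightest probe set (SE 0.10, limma adjusted p = 2.71e-05), from 7.06, 7.48, 7.36 and 7.05 to 5.96, 6.12, 6.07, 6.03 and 5.84. A second bright probe set fell by 2.23. The difference between these paralogues was not tested. Ss18, a subunit of BAF and GBAF, fell by 0.61 (SE 0.09, limma adjusted p = 0.0011), and by 0.85 on a second probe set.

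The following were singled out after their values were seen. The neuronal actin-like subunit Actl6b, the alternative to Actl6a, lay between 1.79 and 1.86 on all 9 arrays, at the floor. Neuronal markers had a summed level of 11.44 to 11.73 on ESC arrays and 9.37 to 9.66 on EB arrays. The sum was carried by Stmn2, and Map2 and Mapt lay under log2 4 on all arrays. Tubb3 lay at 8.01 and 7.67 on EB arrays 7 and 9, and at 6.48 to 6.71 on the other EB arrays. Its highest ESC value was 6.87, and it was not called. Pbrm1, the subunit that defines PBAF together with Arid2, rose on all 3 of its probe sets, by 0.39 to 0.54. Arid2 was called on none of its probe sets, and the brightest differed by 0.21 ± 0.10 (limma adjusted p = 0.11). For Phf10, another PBAF subunit, probe sets disagreed: the brightest differed by -0.21 ± 0.16 and was not called (limma adjusted p = 0.300), while 1435774_at rose by 1.62 ± 0.27 (limma adjusted p = 0.00172).

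**Figure D4:**
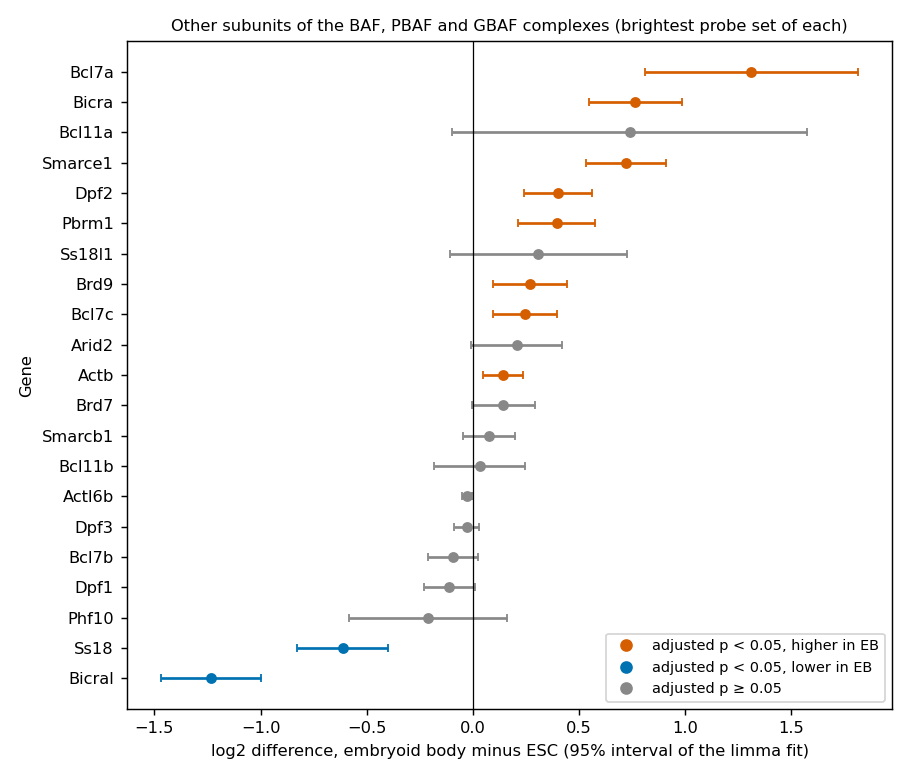
Log2 difference, EB minus ESC, of 21 further subunit genes of the BAF, PBAF and GBAF complexes, each by its brightest probe set, with 95% intervals of the limma fit and colours for called genes. The 8 called higher reach 1.31 (Bcl7a) and the 2 called lower are Ss18 at -0.61 and Bicral at -1.23.

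ATPases of other remodelling families were compared as well, each by its brightest probe set only. Whether further probe sets of these genes moved alike is not shown here. Of 18 genes, 2 were higher and 7 lower in embryoid bodies, against 23.5% higher and 20.9% lower of genes that reached log2 4 on at least 4 arrays, as all 18 did. Their median absolute difference of 0.25 was that of these genes. Chd9 fell by 2.19 on the log2 scale (SE 0.19, limma adjusted p = 2.8e-05), from between 8.77 and 9.64 on the ESC arrays to between 6.74 and 7.34 on the EB arrays. Chd3, an ATPase of the NuRD complex, rose by 1.84 ± 0.36 (limma adjusted p = 0.00522), with ESC array 2 at 5.06 below the other ESC arrays at 6.72 to 6.86. Smarca1, an ATPase of the ISWI family, rose by 1.47 ± 0.17 (limma adjusted p = 0.000206), from a median of 7.16 on the ESC arrays to 8.54, 8.60, 8.92, 8.49 and 8.46 on the EB arrays, without overlap. Among the ATPases, the rises of Chd3 and Smarca1 stood beside that of Smarca2, and no other gene of the 18 was called higher.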

How the data were processed

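Total RNA of E14 cells was hybridized to 9 Affymetrix mouse arrays, 4 of ESCs and 5 of embryoid bodies. The authors deposited linear GCRMA intensities. GCRMA corrects background from probe sequence, normalizes arrays to each other and summarizes probes. Whether the 9 arrays were normalized together is not given in the sources used here. Deposited intensities were turned to log2 with no other normalization, and 64 control probe sets were dropped. Of the remaining 45037, 34945 had 1 gene symbol, 932 several and 9160 none. The number of arrays limits the precision.

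Groups were compared with limma 3.58.1 in R 4.3.3 (lmFit, eBayes with trend and robust), two-sided, with Benjamini-Hochberg adjustment over all 45037 probe sets, after the fit had been tested on simulated data. Paralogue pairs were compared by exact permutation with scipy 1.17.1. Named were all 10 subunit genes and the called genes with the largest change, up to 6 other subunits and 3 other ATPases. The members and lists were chosen with earlier results of these data known. Alternatives were quantile normalization, median centring, no trend or robust step, array weights, a filter at log2 4 on at least 4 arrays, probe sets ending in plain _at, 2-fold changes, gene means over probe sets, the range of array numbers as a block or alone, and each array left out.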

Additional observations from a re-analysis of the deposited data

Results flagged for a closer look

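In 66 groups of array values, those of the 18 BAF subunit probe sets that reached log2 4 on at least 4 arrays, of the named other genes and of the 6 paralogue pairs, an array standing far from the rest of its group was looked for, and chance alone gives such an array in about 1 group in 20. There were 4. Arid1b on ESC array 8 lay at log2 6.18 while the other ESC arrays lay at 7.35 to 7.51. The pair Arid1b minus Arid1a was at -0.98 on the same array, relative to its ESC mean, with the others at 0.24 to 0.44. Actl6a probe set 1429883_at on ESC array 2 lay at 7.68 while the others lay at 7.28 to 7.33. Chd3 on ESC array 2 lay at 5.06 while the others lay at 6.72 to 6.86.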

How the results depend on the processing

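Of 190 recomputed differences of the 10 subunit genes, 167 kept their direction and their side of the threshold, 16 no longer passed, 5 newly passed and 2 reversed. Smarcc2, Smarcd3 and Arid1a were called in the same direction under every alternative run. With plain probe sets Smarca2 was read by the probe set at the floor and gave -0.028, and the pair Smarca2 minus Smarca4 then gave -0.33 (exact p = 0.0159), while Smarcd2 minus Smarcd1 gave -0.29 (exact p = 0.0317). Within arrays numbered 7 and above Smarcc1 reversed to 0.029, and Smarcd2 (-0.25), Arid1b (1.65) and Actl6a (-0.23) did not pass. Within arrays numbered up to 6 Smarca4 (0.24) did not pass. By the mean over probe sets Smarca4 gave 0.22 and did not pass, while Smarcc1 (-0.21) and Smarcd1 (-0.12) passed. Smarcd1 also passed with quantile normalization (-0.26), without the trend and robust steps (-0.21) and with the filter on low values (-0.21). Centring on the median took Smarcd2 (-0.27) out of the calls. With an array left out, Smarcd2 ran from -0.35 to -0.22 and Actl6a from -0.31 to -0.22. The limma adjusted p ran from 0.00108 to 0.122 for Smarcd2 and from 0.00063 to 0.345 for Actl6a over the alternatives. The causes were not tested.

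A fold of at least 2 left 2840 probe sets, 4 of the 21 and 4 of the 10 genes, 2 other subunits and 4 other ATPases. Within arrays numbered 7 and above 5 of the 10 genes were called, and within those numbered up to 6, 6 other subunits. Array weights gave 18162 probe sets (5328 higher, 12834 lower), plain probe sets 6173 of 36082, and leaving out an array 8331 to 17628. The split of higher and lower calls was 4676 and 7076 with quantile normalization and 4958 and 7272 with centring. The alternatives for the other ATPases, the naming of ESC array 8 and the shares of genes and probe sets called among those at log2 4 or more were chosen after seeing the data. No paired analysis was made. The groups share no array number, and the sources used here do not say whether arrays of neighbouring numbers belong together. The tests would therefore ignore such a pairing if there was one. Probe sets under log2 4, near the floor, show little of any difference.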
